A study of Mus musculus with 6 samples.

Results

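In mouse bone marrow 10 genes were described, 9 of the PARP family of ADP-ribosyltransferases and Dtx3l, the ubiquitin ligase that pairs with Parp9. They were chosen by gene symbol as 6 antiviral members (Parp9, Parp10, Parp11, Parp12, Parp14 and Dtx3l) and 4 other members (Parp1, Parp2, Parp6 and Parp8), out of 19938 genes with a probe set of their own on the array, and each of the 10 was read by 1 probe set. The 6 arrays held marrow RNA of 3 wild type and 3 diabetic samples, all of males of 10 weeks, whose marrow had been flushed from the shafts of the long bones of the hind leg, and the RNA was that of the whole marrow. The genotype field gives BKS.Cg-Dock7m +/+ Leprdb/JNju for wild type and BKS.Cg-Dock7m -/- Leprdb/JNju for diabetic samples, so that both groups carry the name of 1 stock on which Leprdb, a loss-of-function allele of the leptin receptor gene, and Dock7m, the misty coat colour allele, are kept. The labels do not say which allele each sign refers to, so they do not give the state of Dock7m or of Leprdb in either group. Nor do they say whether 1 animal or several stood behind an array, and the p-values thus cover only the spread among these arrays, which may be technical.

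PARP enzymes take ADP-ribose from NAD and attach it to proteins or nucleic acids, some as long chains and most as a single unit. Parp1 and Parp2 make chains at broken DNA and call in repair proteins. Several of the enzymes that add single units, among them Parp10, Parp12 and Parp14, are switched on by interferon and restrict viruses, while the macrodomains of Parp9 and Parp14 bind ADP-ribose. Parp9 and Dtx3l work as a complex that boosts interferon signalling and that is also known to reach damaged DNA, so the antiviral and repair roles are not exclusive. Of the 4 other members only Parp1 and Parp2 are established repair enzymes. Parp6 and Parp8 are less studied enzymes that add single units, and the 4 are therefore called the other members here, not repair members.

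Parp12, Parp14 and Parp9 fell in diabetic marrow, by 2.03-fold, 1.59-fold and 1.47-fold, and no other of the 10 passed the test. In whole marrow, fewer cells of a type and less RNA per cell cannot be told apart. The test was limma's moderated comparison over 11940 genes above a level filter, with Benjamini-Hochberg adjustment over all of them and a threshold of 0.05. All 10 members passed the filter, a mean log2 signal of 7.52 or more over the 6 arrays, and both group means of each lay above it. The median log2 change was -0.51 over the 6 antiviral members and 0.03 over the 4 others, beside 0.00 (0.0047) over all genes tested. Of the 6 antiviral members, 3 were called lower, where 0.327% of all genes tested were called lower. Of the other members 0 of 4 passed in limma, and 0 of 4 had an unadjusted p under 0.05. Over all genes tested 0.41% were called in either direction, and 3.17% had an unadjusted p under 0.05 with a lower and 3.99% with a higher signal. The grouping was made with this comparison already known, so these counts describe the members and do not support the grouping. The difference between the antiviral and the other members was not tested.

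**Figure D1:**
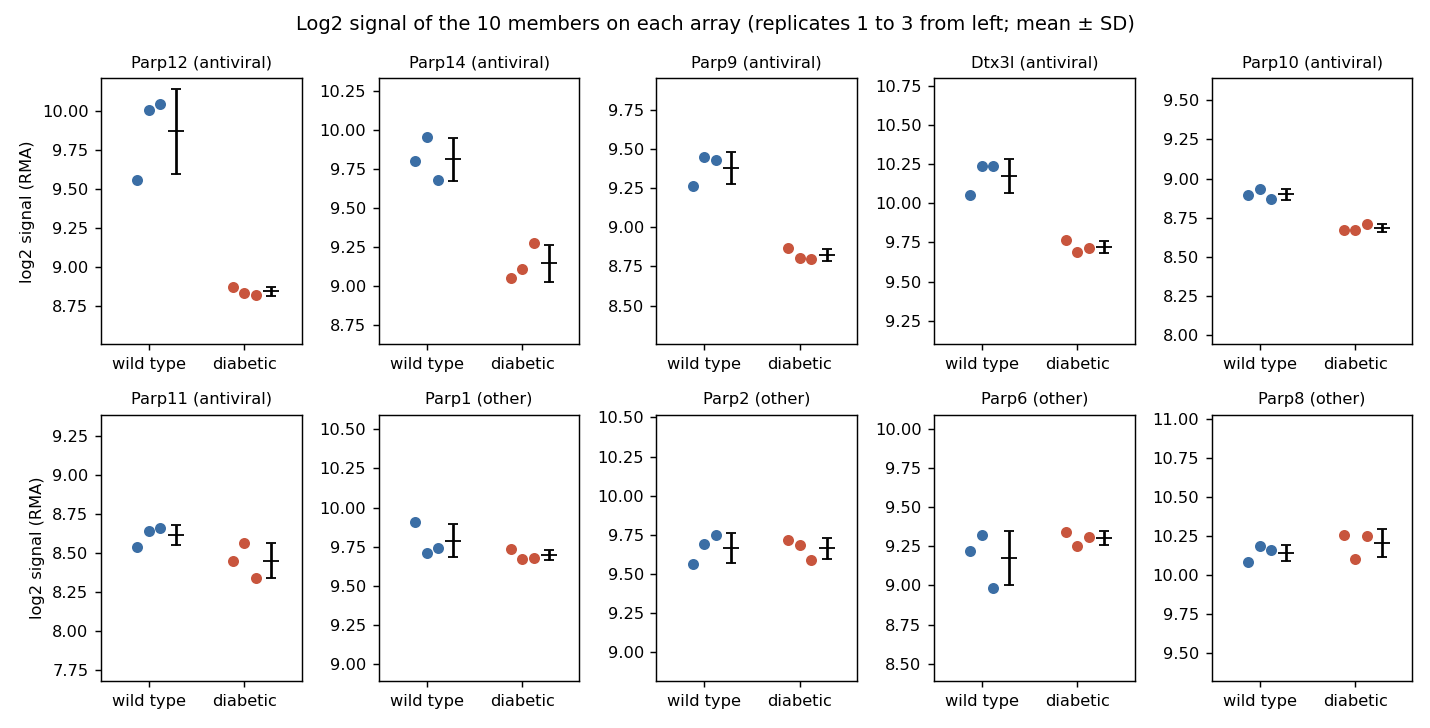
Log2 signal (RMA, y axis) of each of the 10 members on 3 wild type (blue) and 3 diabetic (red) arrays, with the mean and SD of each group in black. Every panel spans the same number of log2 units, and the groups are apart in 5 panels, those of Parp12, Parp14, Parp9, Dtx3l and Parp10.

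Promoter windows show how differently these genes begin. RefSeq windows of build GRCm38.p6, from 250 bases before a start to 50 from it on, were at hand for 7 of the 10 members, with 2 windows for Parp11, and Parp9, Parp10 and Parp14 are named only. Each was searched on both strands for the core of the interferon-stimulated response element, which is GAAA and GAAA with any 2 bases between them, for its longer form, the core followed by CT, for TTCNNNGAA, the site type bound by STAT dimers, and for GGGCGG, the GC box. Shown in full are the windows of Parp12, the member with the largest fall, of Dtx3l, whose RefSeq span overlaps that of Parp9, of the Parp11 start that holds an interferon motif, and of Parp1 for contrast. Capitals mark motif matches. Parp12 lies at chr6:39118300-39118599 on the minus strand, Dtx3l at chr16:35938978-35939277 on the minus strand, Parp11 at chr6:127446590-127446889 on the plus strand and Parp1 at chr1:180568641-180568940 on the plus strand.
Parp12: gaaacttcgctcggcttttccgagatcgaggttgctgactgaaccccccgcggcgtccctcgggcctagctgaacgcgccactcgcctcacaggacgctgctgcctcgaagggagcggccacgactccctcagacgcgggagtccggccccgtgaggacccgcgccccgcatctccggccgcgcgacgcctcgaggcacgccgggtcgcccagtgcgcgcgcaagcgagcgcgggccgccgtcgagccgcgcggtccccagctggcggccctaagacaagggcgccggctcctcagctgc
Dtx3l: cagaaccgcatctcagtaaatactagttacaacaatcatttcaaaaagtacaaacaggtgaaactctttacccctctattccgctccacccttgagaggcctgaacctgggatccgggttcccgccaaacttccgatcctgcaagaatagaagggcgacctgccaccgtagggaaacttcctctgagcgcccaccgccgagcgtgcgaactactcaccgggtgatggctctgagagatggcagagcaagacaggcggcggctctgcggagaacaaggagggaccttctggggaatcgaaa
Parp11: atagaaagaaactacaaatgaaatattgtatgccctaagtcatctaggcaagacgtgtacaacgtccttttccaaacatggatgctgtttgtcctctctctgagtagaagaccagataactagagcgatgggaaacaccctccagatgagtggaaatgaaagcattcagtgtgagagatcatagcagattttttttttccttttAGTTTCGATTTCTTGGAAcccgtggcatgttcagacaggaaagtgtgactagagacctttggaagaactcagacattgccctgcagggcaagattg
Parp1: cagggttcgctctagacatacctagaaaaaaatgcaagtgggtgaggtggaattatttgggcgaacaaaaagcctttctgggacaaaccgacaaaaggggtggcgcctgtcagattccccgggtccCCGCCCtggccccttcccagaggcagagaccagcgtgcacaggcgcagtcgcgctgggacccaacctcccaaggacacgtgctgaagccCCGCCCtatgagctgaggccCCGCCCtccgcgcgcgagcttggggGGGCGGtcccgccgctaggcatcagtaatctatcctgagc

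Among the 7 members with a window the longer response element occurred only in the first of the 2 Parp11 windows. It lay from 46 to 35 bases before the start on the minus strand, and the STAT type motif overlapped it, from 37 to 29 bases before the start. Parp9, Parp10 and Parp14 could not be searched. The second Parp11 window held 1 GC box and neither interferon motif. The Parp12 and Dtx3l windows held none of the 4 motifs. Parp1 had 4 GC boxes, Parp8 had 3, Parp6 had 2 and Parp2 had 1, and none of these 4 held either form of the response element or the STAT type motif. Of all 32851 promoter windows in the table, 3.44% held the core element, 0.271% the longer form, 8.3% the STAT type motif and 35.7% a GC box. The Parp12 window was rich in G and C, at 73.7%. The shares were 54.3% for Dtx3l, 42% for the first and 59% for the second Parp11 window and 62% for Parp1. Parp2 stood at 60%, Parp6 at 67.7% and Parp8 at 72.3%. High G and C was thus not particular to Parp12, and Tiparp, of the rest of the PARP family, also had 73.7%. A match is a run of letters and not a shown binding site, and a window without a match says nothing of sites outside it.

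Parp12, a zinc finger protein that restricts several RNA viruses, had the largest change. Its log2 signal was 9.56, 10.01 and 10.05 on wild type replicates 1 to 3 and 8.88, 8.84 and 8.82 on diabetic replicates 1 to 3. The groups were 0.68 apart at their nearest values, and wild type replicate 1 was the low one of its group while the diabetic arrays spanned 0.0518 log2 units. Its log2 change was -1.02 ± 0.12 (SE; 3 arrays in each group; limma adjusted p = 0.022), and 18 of the 11940 genes tested had a change of this size or lower. The order of the SDs, 0.27 in wild type and 0.03 in diabetic marrow, shows that the spread was nearly all on the wild type side.

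Parp14, which carries macrodomains and a catalytic domain and is known as a partner of STAT6 in interleukin 4 signalling, came next. Its log2 signal was 9.80, 9.96 and 9.68 on the wild type and 9.05, 9.11 and 9.28 on the diabetic arrays. Here wild type replicate 3 and not replicate 1 was lowest, diabetic replicate 3 was highest in its group, and the nearest values were still 0.41 apart. Parp14 had a log2 change of -0.67 ± 0.09 (SE; limma adjusted p = 0.0328).

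Parp9, which binds ADP-ribose through its macrodomains and has little catalytic activity alone, and Dtx3l, its ligase partner, had nearly the same course over the arrays. Parp9 was at 9.26, 9.45 and 9.43 in wild type and at 8.87, 8.81 and 8.80 in diabetic marrow. Dtx3l was at 10.05, 10.24 and 10.24 in wild type and at 9.76, 9.69 and 9.71 in diabetic marrow. For both genes wild type replicate 1 was the lowest of its group and diabetic replicate 1 the highest of its group, and the groups did not overlap. The log2 change of Parp9 was -0.56 ± 0.07 (SE; limma adjusted p = 0.022). That of Dtx3l was -0.45 ± 0.07 (SE; limma adjusted p = 0.053) and missed the threshold, so only 1 gene of the pair was called. After centring each gene on its own mean, the root mean square difference between the 2 over the 6 arrays was 0.0533 log2 units, the smallest of the 45 pairs of members.

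Parp10 and Parp11, both enzymes that add single ADP-ribose units, had the smallest changes of the antiviral members. Parp10, found first as a partner of the transcription factor MYC, was at 8.89, 8.93 and 8.87 in wild type and at 8.67, 8.67 and 8.71 in diabetic marrow. These groups did not overlap, with 0.16 between their nearest values, but the change was small, -0.22 ± 0.06 on the log2 scale (SE; limma adjusted p = 0.339). Parp11, which has been tied to turnover of the type I interferon receptor, was at 8.54, 8.64 and 8.66 in wild type and at 8.45, 8.56 and 8.34 in diabetic marrow. Diabetic replicate 2 lay above wild type replicate 1, so the groups overlapped, and the change of -0.16 ± 0.07 had an adjusted p of 0.723 in limma. Parp11 was thus the antiviral member with the smallest change. It was also the only one of the 7 members with a promoter window in which the longer response element was found. In 5 of the 6 antiviral members the diabetic values all lay below the wild type values, a pattern seen in 5.38% of all genes tested.

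The calls on Parp12, Parp14 and Parp9 depended on which array was left out. The count of 3 antiviral members fell to 0 without wild type replicate 2 and to 0 without diabetic replicate 1, 2 or 3, and over all genes the 49 calls became 13, 5, 3 and 12. It was 3 without wild type replicate 1, where Dtx3l passed and Parp14 did not, and 3 without wild type replicate 3. The log2 changes themselves moved little when 1 array was left out, from -1.18 to -0.94 for Parp12, from -0.73 to -0.59 for Parp14, from -0.62 to -0.52 for Parp9 and from -0.52 to -0.42 for Dtx3l.

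**Figure D2:**
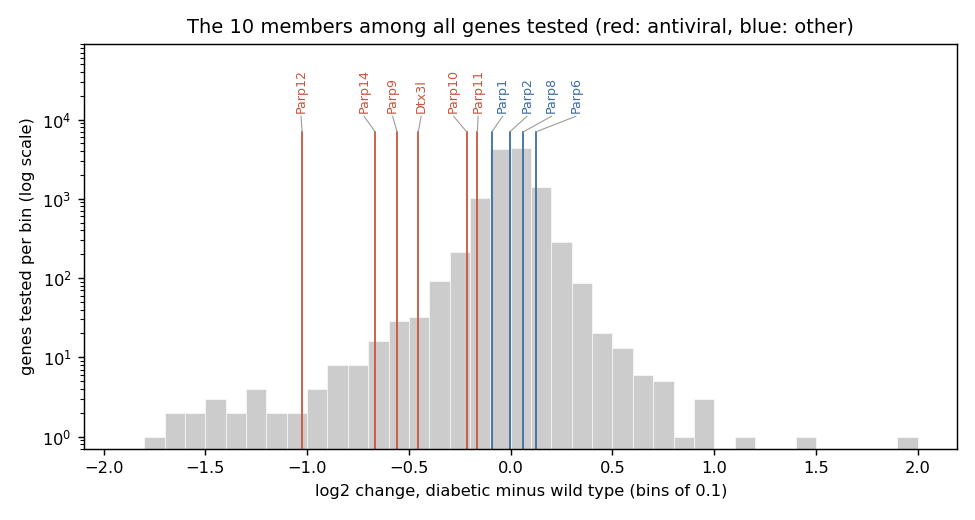
Number of genes tested per bin of log2 change (diabetic minus wild type, bins of 0.1, y axis on a log scale), with lines at the 6 antiviral members (red) and the 4 other members (blue). Parp12 at -1.02 lies in the far lower tail, while the 4 other members, from -0.09 to 0.12, lie among the bulk of genes.

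Parp1, the main sensor of DNA breaks, was at 9.91, 9.71 and 9.74 in wild type and at 9.73, 9.67 and 9.68 in diabetic marrow. Wild type replicate 1 stood highest and the groups overlapped. Its log2 change was -0.09, with a 95% interval from -0.25 to 0.07, so the data allow a fall of up to 1.19-fold and a rise of up to 1.05-fold. Parp2, which shares the repair role of Parp1, was at 9.56, 9.69 and 9.75 in wild type and at 9.72, 9.68 and 9.59 in diabetic marrow, a change of -0.00 (-0.0044) with an interval from -0.17 to 0.16. The groups covered almost the same range.

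Parp6 was at 9.22, 9.33 and 8.99 in wild type and at 9.34, 9.25 and 9.31 in diabetic marrow. Wild type replicate 3 was low, and without it the log2 change of Parp6 was 0.03 in place of 0.12 with all arrays, where its 95% interval ran from -0.09 to 0.33. Parp8 was at 10.08, 10.18 and 10.16 in wild type and at 10.26, 10.10 and 10.25 in diabetic marrow, a change of 0.06 with an interval from -0.09 to 0.22. The groups of both genes overlapped, and the adjusted p values of the 4 other members lay between 0.911 and 0.997 in limma. A fall as large as that fitted for Parp9 lies outside the 95% interval of each of the 4.

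**Figure D3:**
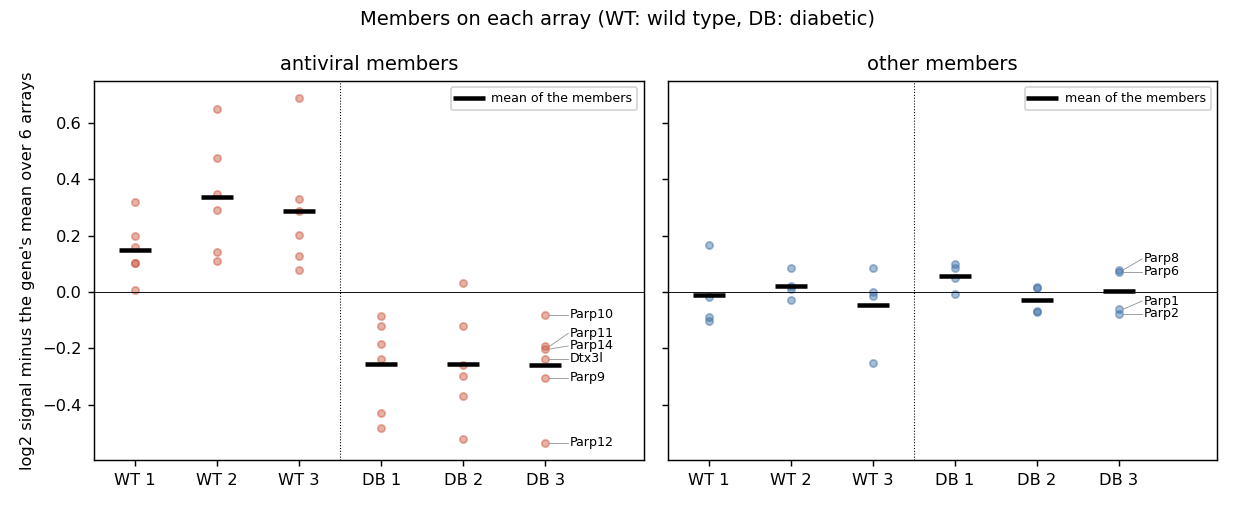
Log2 signal of each member minus its mean over the 6 arrays (y axis), by array, for the 6 antiviral members (left) and the 4 other members (right), with black bars at the mean of the members. The antiviral means are 0.15, 0.34 and 0.29 on the wild type arrays and -0.26 on each diabetic array, and the means of the other members stay between -0.05 and 0.06.

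Averaged over the 6 antiviral members after centring, the arrays stood at 0.15, 0.34 and 0.29 log2 units in wild type and at -0.26, -0.26 and -0.26 in diabetic marrow. The other members stood at -0.01, 0.02 and -0.05 in wild type and at 0.06, -0.03 and 0.00 (0.0031) in diabetic marrow. The diabetic arrays were thus alike in the antiviral mean while wild type replicate 1 was lower than its 2 group mates. The likeness is that of the mean and not of every member. On diabetic replicate 3 Parp14 was highest and Parp11 lowest of their diabetic values, which spanned 0.2262 and 0.2237 log2 units. Wild type replicate 1 was the lowest of its group for 4 of the 6 antiviral members, Parp9, Parp11, Parp12 and Dtx3l, and for 10 of 12 interferon-induced genes tested, where the share over all genes was 39.8%. The range over the arrays was wider in wild type than in diabetic marrow for 5 of the 6 antiviral members, with Parp11 the exception, and for 57% of all genes tested.

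The rest of the PARP family was read in the same way, as a list of 7 genes of which 6 were tested. In limma 0 of the 6 passed, 0 had an unadjusted p under 0.05, and in all 6 the groups overlapped, with a median change of 0.04. Overlap was the common case, as of 11940 genes tested the groups lay apart in 642 with lower and 835 with higher diabetic values. Zc3hav1, the zinc finger antiviral protein that binds viral RNA and is itself known as interferon-induced, had a log2 change of -0.08 with a 95% interval from -0.29 to 0.12. That interval leaves out a fall of the size fitted for Parp9, Parp12, Parp14 or Dtx3l. Zc3hav1 is not among the 6 antiviral members, which were chosen by gene symbol, so their counts and median leave out this antiviral gene. Tiparp, an enzyme induced by the aryl hydrocarbon receptor, was at 0.07, Parp16, of the endoplasmic reticulum, at 0.08, and Parp3, a repair enzyme, at -0.01. The tankyrases Tnks and Tnks2, which act at telomeres and in Wnt signalling, were both at 0.04. Parp4 is on a probe set with several gene symbols and has no value here. The 4 other Deltex ligases, Dtx1 to Dtx4, also had overlapping groups and 0 calls in limma, with 0 at an unadjusted p under 0.05. Their changes ran from -0.13 for Dtx1 to 0.11 for Dtx4, beside -0.45 for Dtx3l.

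**Figure D4:**
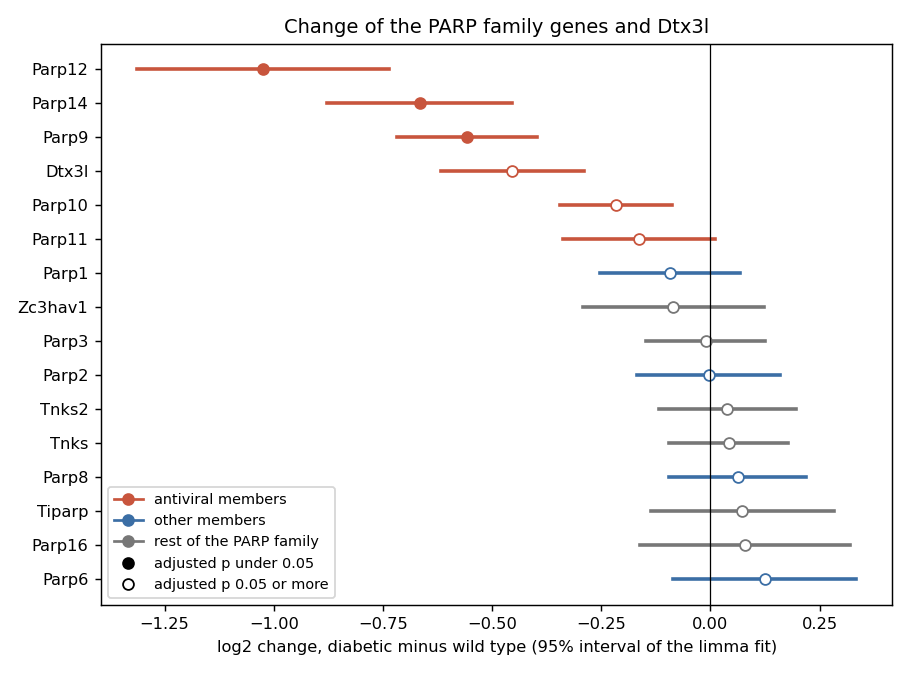
Log2 change (diabetic minus wild type, x axis) of the 16 genes tested, which are the PARP family and Dtx3l, with 95% intervals of the limma fit. Filled points have an adjusted p under 0.05, and only Parp12, Parp14 and Parp9 do.

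Parp14, Dtx3l and Parp9 sit side by side on chromosome 16, with only pseudogenes between Parp14 and Dtx3l in the RefSeq table. The 3 nearest genes on either side that had a probe set of their own on the array were set beside them. On the Parp14 side these were Hspbap1, Slc49a4 and Sema5b, with log2 changes of -0.01, 0.09 and -0.03. On the Parp9 side they were Kpna1, Wdr5b and Fam162a, with 0.00 (-0.0044), 0.03 and 0.02. The groups of all 6 neighbours overlapped, as did those of most genes tested, and their adjusted p values lay between 0.931 and 0.997 in limma. The lowest bound of their 95% intervals was -0.25, so that a fall as large as the change fitted for Dtx3l lies outside each interval. Parp12 and Parp11 are both on chromosome 6 but apart from each other, Parp10 is on chromosome 15, and the others are on chromosomes 1 (Parp1), 14 (Parp2), 9 (Parp6) and 13 (Parp8).

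**Figure D5:**
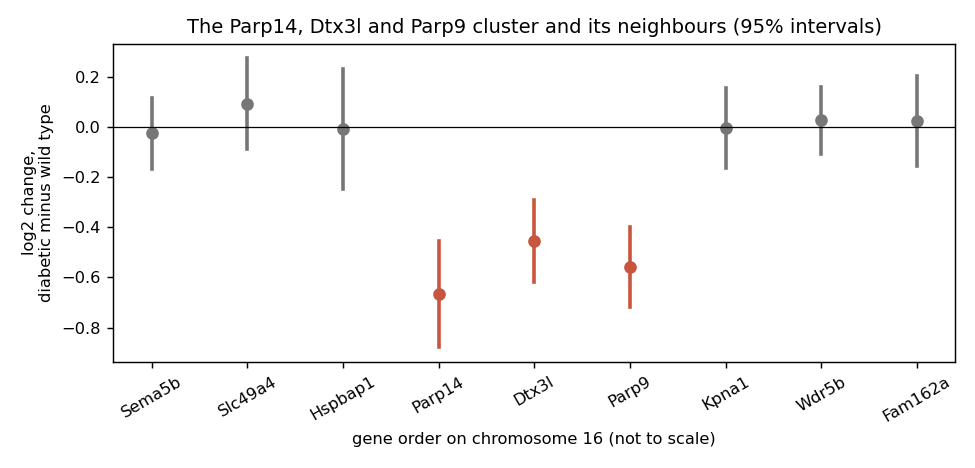
Log2 change (diabetic minus wild type, y axis) of Parp14, Dtx3l and Parp9 (red) and the 3 nearest genes with a probe set of their own on either side (grey), in their order on chromosome 16, with 95% intervals. The 3 members lie between -0.67 and -0.45 and the 6 neighbours between -0.03 and 0.09.

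Genes that make, use or answer the same chemistry were compared through lists. Enzymes that remove ADP-ribose had 7 tested genes, 1 with a negative and 6 with a positive change, and 0 calls in limma, with a median change of 0.01. Over all genes tested 5689 changes were negative and 6251 positive. Oard1, which takes ADP-ribose off glutamate, was at 0.18 with an adjusted p of 0.694 and was the only one of the 7 with an unadjusted p under 0.05, and Nudt9, which splits free ADP-ribose, was at 0.16. Single-strand break and base excision repair had 16 tested genes, 8 with a negative and 8 with a positive change, and 0 calls in limma, with a median of -0.00 (-0.0049). Tdp1, which clears stalled topoisomerase 1 from DNA, was at -0.18 with an adjusted p of 0.694 and was the only one with an unadjusted p under 0.05, and Apex1, the main abasic site nuclease, was at -0.08. NAD supply and use had 14 tested genes, 7 in each direction, with 0 calls in limma and 0 at an unadjusted p under 0.05. The median was -0.00 (-0.0038). In 3 of the 14 all diabetic lay below all wild type values, a pattern seen in 5.38% of all genes tested. The nearest values of these 3 were at most 0.0099 log2 units apart. Nampt, the rate-limiting enzyme of NAD salvage, was at -0.19 with an adjusted p of 0.711, and Sirt6, which consumes NAD, was at -0.10.

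The interferon pathway lists, which were drawn up with earlier results of these data known and so do not bear on direction independently, gave other counts. Of 12 interferon receptor and factor genes tested, 3 passed in limma, all lower, namely Irf7, Irf9 and Stat2, the last 2 being subunits of the factor that binds the response element. Irf9 was at 10.35, 10.68 and 10.52 in wild type and at 9.66, 9.77 and 9.78 in diabetic marrow. The groups lay apart, and the log2 change was -0.78 ± 0.09 (SE; limma adjusted p = 0.0194). Stat2 had -0.49 ± 0.07 (limma adjusted p = 0.0406), between the values of Dtx3l and Parp9, and Irf7, the factor that amplifies interferon production, had -1.30 ± 0.17 (limma adjusted p = 0.028). The median of the 12 was -0.02, with 7 negative and 5 positive changes. At an unadjusted p under 0.05, 5 were lower and 2 higher, the latter being Jak2, a kinase of the receptors, at 0.17 and Ifngr1, a chain of the interferon gamma receptor, at 0.21, both named after their values were seen. Of 12 interferon-induced antiviral genes tested, 8 passed in limma, all lower, and the median was -1.13. These were Ifit3 at -1.78, Rtp4 at -1.67, Oas2 at -1.49, Usp18 at -1.42, Oasl2 at -1.35, Irgm1 at -0.90, Dhx58 at -0.81 and Cmpk2 at -0.56, the last with the same change as Parp9. These calls too depended on single arrays. Without wild type replicate 2, or diabetic replicate 1, 2 or 3, the 8 became 4, 2, 0 and 2, and the 3 receptor and factor calls became 0 each time. With the replicate block both counts were 0. The antiviral PARP members, with their median of -0.51, thus had changes of smaller size than that list at its median, and Parp12 was closest to it. The difference between the lists was not tested.

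The genes whose course over the 6 arrays was nearest to that of each member were found by the root mean square difference of centred log2 values over all genes tested. For Parp12 these were Cxcl9 at 0.0622, Lgals3bp at 0.0881 and Zbp1 at 0.0936. For Parp14 they were Sdc3 at 0.0604, Trim30a at 0.0797 and Axl at 0.0948. Parp9 was nearest to Cmpk2 at 0.0501, Gbp3 at 0.051 and Dtx3l at 0.0533, and Dtx3l to Gbp3, Parp9 and Adar. Parp10 was nearest to Abi2, Etv5 and Hikeshi and Parp11 to Rtraf, Rab11b and Ccdc28a. The mean course of the antiviral members was nearest to Parp9, Dtx3l and Adar, of which the first 2 are themselves in the mean, and that of the other members to Wdr5b, Tef and Bnip3. Nearest to Parp1 were Fst, Bap1 and Msto1, to Parp2 Tmub2, Rpl6 and Nudt14, to Parp6 Avl9, Gpr137b-ps and Prkd3, and to Parp8 Pglyrp1, Vrk3 and Txndc17. The distances take in the difference between the groups, and a small one does not mean a shared order within groups: Parp9 was lowest on diabetic replicate 3, where Cmpk2 was the highest of its diabetic values.

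Marrow is a mixture of cell types, and marker lists were read beside the members. Early and late neutrophil markers, the labelled tissue's most abundant cells, were bright on every array, with list means from 12.23 to 12.60 and from 13.28 to 13.45 log2 units, and did not separate the groups. Some lists of other cell types did. The mean of 6 plasma cell markers was 9.78 to 10.18 in wild type and 9.54 to 9.57 in diabetic marrow, with 6 of 6 markers lower. Monocyte and macrophage markers, 8 of 11 lower, had means of 10.13 to 10.29 and 9.97 to 10.09. Dendritic cell markers, 5 of 8 lower, had 9.67 to 9.78 and 9.54 to 9.61, and adipocyte markers, 3 of 4 higher, had 8.24 to 8.33 and 8.37 to 8.53. B cell precursor markers, 8 of 8 lower, overlapped, with 10.35 to 11.47 in wild type and 10.45 to 10.81 in diabetic marrow. The means of the erythroid, T and NK cell, skeletal muscle and osteoblast lists overlapped too. Over all genes tested 5689 of 11940 had a negative change. In lists with means apart, 3 plasma cell, 6 monocyte and macrophage, and 3 dendritic cell markers had all diabetic below all wild type values. In them 1 monocyte and macrophage, 1 dendritic cell and 1 adipocyte marker had all diabetic values above. Over all genes tested 642 lay apart below and 835 above. In limma 0 of the markers in these lists passed over all genes, with 3 plasma cell, 6 monocyte and macrophage, and 4 dendritic cell markers lower at an unadjusted p under 0.05. At that level 1 B cell precursor, 1 T and NK cell and 1 osteoblast marker were also lower. Higher at that level were 1 dendritic cell, 1 adipocyte and 1 erythroid marker. Over all genes tested the shares were 3.17% lower and 3.99% higher. The part of these cell types in the changes of Parp12, Parp14 and Parp9 was not tested.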

How the data were processed

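RNA of 3 wild type and 3 diabetic marrow samples was read on Affymetrix gene arrays. The authors deposited 1 log2 signal for each probe set and array. The submitters' processing notes name RMA and Affymetrix Expression Console. RMA equalises the distributions of the arrays, so a shift shared by most genes cannot be seen. Array medians ran from 7.67 to 7.73 log2 units. Precision is limited by having 3 arrays in each group. The software's version and the build were not given in the sources used here.

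Of 35556 probe sets, 21789 had 1 gene symbol in the platform annotation, 1621 had several and 12146 had none there. For each of 19938 genes the set with the highest mean over the 6 arrays was kept, and 11940 genes with a mean at or above 7.52, the 40th percentile of single-symbol probe sets, were tested. Groups were taken from the sample titles. lmFit and eBayes of limma 3.58.1 (R 4.3.3, data.table version 1.17.8) were run with no covariate, with Benjamini-Hochberg adjustment over all genes tested, and were tested on simulated data. The intervals are 95% intervals of that fit. Figures used matplotlib 3.10.9 in Python 3.11.15.

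The members and lists were chosen with earlier results of these data known. The named genes were the members, the rest of the PARP family, list genes past the threshold or otherwise the 2 with the smallest p, the 3 nearest courses and the 3 neighbours on each side; Dtx1 and Dtx3 were named after their values were seen. Alternatives changed the level filter, the normalization (a second quantile step, or centring on array medians), the handling of several probe sets (their mean) and the variance model (trend and robust eBayes). Others used weights for arrays, took the replicate number as a block, or left out 1 array at a time. Promoter windows and gene order are from RefSeq, GRCm38.p6.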

Additional observations from a re-analysis of the deposited data

How the results depend on the processing

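Leaving out 1 array gave 3 to 68 calls over all genes, 0 to 3 among the antiviral members and 0 to 12 over the related lists, against 49, 3 and 11 with all arrays. With array weights, where limma warned that its estimate had not converged, there were 1131 calls over all genes, 6 among the antiviral members and 23 over the lists. With the replicate number as a block there were 2, 0 and 0. The deviations of same-numbered samples correlated at 0.33, -0.04 and -0.05 for replicates 1, 2 and 3. Samples of different number were not set beside them, so these values cannot show whether the numbers pair the samples. The main fit took no pairing. The causes of these shifts were not tested. The level filters, the normalizations, the mean of probe sets and the trend and robust settings kept the 3 calls on Parp12, Parp14 and Parp9, and a further quantile normalization added Dtx3l, at an adjusted p of 0.0354. Over all 14 alternatives in limma the adjusted p ran from 0.000146 to 0.143 for Parp12, from 0.000193 to 0.215 for Parp14, from 0.000257 to 0.142 for Parp9 and from 0.000785 to 0.318 for Dtx3l. Their log2 changes were negative in all 14, as were those of Parp10 and Parp11. The median change ran from -0.57 to -0.47 for the antiviral and from 0.00 (0.0006) to 0.05 for the other members, with 0 calls among the latter in all 14. With array weights Parp1 was at -0.01 and Parp6 at 0.02.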

Other observations

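The promoter motifs were also counted over all genes past the threshold, as a description with no test. Of the 39 genes called lower in diabetic marrow, 28 had a RefSeq window, 32 windows in all, and 43.8% of these held the core interferon-stimulated response element and 25% its longer form, beside 3.44% and 0.271% of all windows in the table. Of the 10 genes called higher, 7 had a window, and 1 of their 9 windows (11.1%) held the core element and 0 the longer form. The STAT type motif was in 18.8% of the windows of genes called lower and in 22.2% of those called higher. In all windows that share was 8.3%. For the GC box the shares were 37.5%, 33.3% and 35.7% in the same order. Parp12 was the 1 called member with a window, and its window held neither form of the response element.

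Mx1, an antiviral GTPase in the list of interferon-induced genes, lay below the level filter with a wild type mean of 7.97 and a diabetic mean of 7.05. In the fit without a filter its log2 change was -0.92 ± 0.10 (SE; limma adjusted p = 0.0121).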
